A study of Mus musculus with 36 samples.

Results

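The class 3 semaphorins and neuropilins are 9 mouse genes, Sema3a, Sema3b, Sema3c, Sema3d, Sema3e, Sema3f and Sema3g for the secreted ligands and Nrp1 and Nrp2 for the receptors, out of 22350 protein-coding genes of GENCODE M1 on chromosomes 1 to 19 and X of mm9. They were chosen by name, with earlier results of these data known. Every peak whose centre lay in the body of one of these genes or within 100 kb of it was taken, from the 3 lists of PAX6 peaks and the list of IgG peaks. PAX6 ChIP-seq had been performed on enteric precursor cells (EPCs), the neural crest-derived progenitors of the enteric nervous system (ENS), which were isolated from the ganglionic gut of CD1 mice at postnatal day 7 and grown as neurosphere-like bodies (NLBs). All libraries came from this 1 strain, age and type of culture, with no genotype or treatment between groups. An antibody against PAX6 was used for 16 ChIP libraries (4, 6 and 6 in pools 1 to 3), each pool had as many input libraries taken before immunoprecipitation, and 4 libraries with mouse IgG, all labelled pool 1, were the negative control. The labels do not say how many animals or cultures the libraries came from. The reads of each pool were merged by the authors before peaks were called, so that each pool gives 1 list, single libraries cannot be compared, and replication exists only between pools. Peak lists hold no expression, and the identity of the cells could not be checked against marker genes.

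Class 3 semaphorins are secreted guidance proteins that steer migrating cells and growing axons, mostly by repulsion. Most of them bind a neuropilin, NRP1 or NRP2, which has no signalling domain of its own and passes the signal on through a plexin of class A, whereas SEMA3E can bind plexin D1 directly. In the mouse gut, SEMA3A from the mesenchyme of the distal bowel holds back the entry of sacral neural crest cells and extrinsic axons, and in human genetics variants near SEMA3C and SEMA3D are associated with Hirschsprung disease, the absence of enteric ganglia. PAX6 is a transcription factor with a paired domain and a homeodomain. A peak near a gene gives a position of enriched chromatin and no information on whether that gene is regulated.

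PAX6 peaks lay near 4 ligand genes, Sema3a, Sema3c, Sema3d and Sema3e, with 1 peak at each gene. No PAX6 peak lay within 100 kb of Sema3b, Sema3f, Sema3g or of either receptor gene, Nrp1 or Nrp2. Pool 2 gave the peaks at Sema3a and Sema3c, pool 3 the peak at Sema3d and pool 1 the peak at Sema3e, so that no member had peaks from more than 1 pool. A single IgG peak was found, downstream of Sema3c. The 4 genes with a PAX6 peak all lie on the plus strand of chromosome 5 and have bodies of between 156.0 kb (Sema3c) and 477.0 kb (Sema3a).

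The sequences at the centres of 3 of these 5 peaks are shown first, because they differ in how much of the centre is made of CA or TG runs. The PAX6 peak near Sema3a and the IgG peak near Sema3c held long runs, and the PAX6 peak near Sema3d a single short one. Each line gives 300 bases of the plus strand of mm9 around the centre of the peak, and capitals mark uninterrupted runs of CA or TG of at least 8 bp. The stretches are chr5:13058129-13058428 (Sema3a), chr5:12295839-12296138 (Sema3d) and chr5:17318678-17318977 (Sema3c, IgG).
Sema3a, PAX6 pool 2: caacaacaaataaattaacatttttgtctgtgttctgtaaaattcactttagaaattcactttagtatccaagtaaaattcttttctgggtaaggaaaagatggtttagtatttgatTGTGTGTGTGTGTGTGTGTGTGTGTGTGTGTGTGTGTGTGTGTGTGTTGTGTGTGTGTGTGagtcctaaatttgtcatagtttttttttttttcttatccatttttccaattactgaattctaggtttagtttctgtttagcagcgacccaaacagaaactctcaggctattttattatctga
Sema3d, PAX6 pool 3: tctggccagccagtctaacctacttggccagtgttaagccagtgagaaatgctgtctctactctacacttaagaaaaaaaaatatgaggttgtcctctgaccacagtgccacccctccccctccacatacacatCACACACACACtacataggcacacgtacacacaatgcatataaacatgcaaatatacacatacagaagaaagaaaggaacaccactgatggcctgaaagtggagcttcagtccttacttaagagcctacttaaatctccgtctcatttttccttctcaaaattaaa
Sema3c, IgG: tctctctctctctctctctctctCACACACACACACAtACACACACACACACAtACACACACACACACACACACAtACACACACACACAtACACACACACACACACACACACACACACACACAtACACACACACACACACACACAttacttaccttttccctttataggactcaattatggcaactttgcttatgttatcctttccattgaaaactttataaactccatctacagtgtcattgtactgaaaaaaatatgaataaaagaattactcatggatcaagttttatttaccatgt

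Sema3a (ENSMUSG00000028883.10), which encodes the ligand of NRP1 that delays the entry of sacral crest cells, spans chr5:13125593-13602565. Its peak came from pool 2, at chr5:13058122-13058435 (314 bp), and was intergenic, 67.3 kb upstream of the 5′ end of the gene. The score was 71.68, which ranked 417 of the 1032 peaks of pool 2 and was shared by 15 of them. The score of a peak is 10 times the negative log10 of the p-value from the peak caller MACS, and since it depends on sequencing depth it was ranked within its own list only. The closest start site was not that of Sema3a but that of Gm10481, an annotated coding gene model, at 14.8 kb. The nearest peaks of the other lists were 1.22 Mb (pool 1), 0.76 Mb (pool 3) and 1.87 Mb (IgG) away.

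Sema3c (ENSMUSG00000028780.7), a ligand gene known for guiding neural crest cells into the outflow tract of the heart in mice, spans chr5:17080099-17236086 and was the only member with a PAX6 peak inside its body. This peak of pool 2, at chr5:17163984-17164415 (432 bp), lay in an intron 84.1 kb downstream of the 5′ end. In the annotated transcript ENSMUST00000030568.7 it fell in intron 4 of 17, 3.3 kb from the nearest exon, and the closest of the 5 annotated start sites of Sema3c was 35.8 kb away. The score of 81.78 ranked 329 of 1032. The IgG peak, at chr5:17318667-17318988 (322 bp), lay 82.7 kb downstream of the gene. Its centre fell in an intron of Cd36, a gene of fatty acid uptake whose start site was 22.9 kb away. This IgG peak had a score of 68.75, rank 355 of the 1007 IgG peaks, a value shared by 67 of them. The PAX6 and IgG peaks of Sema3c were separated by 154.3 kb and did not overlap.

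Sema3d (ENSMUSG00000040254.6), which lies upstream of Sema3a on chromosome 5 and is a locus of association with Hirschsprung disease in human, spans chr5:12383166-12588943. Its peak came from pool 3, at chr5:12295816-12296160 (345 bp), intergenic and 87.2 kb upstream, and Sema3d was the gene with the closest start site. The score of 138.11, shared by 29 peaks, ranked 158 of 724, which placed it above 76.3% of its list with ties counted as equal parts above and below. This was the highest percentile among the 4 PAX6 peaks near the members. Pool 2 had its nearest peak 0.76 Mb away, which is the peak upstream of Sema3a, and pool 1 had none closer than 1.99 Mb.

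Sema3e (ENSMUSG00000063531.6), the ligand of plexin D1 with a role in the patterning of vessels, spans chr5:14025276-14256689. Its peak came from pool 1, at chr5:14281767-14282459 (693 bp), and lay in the intergenic stretch 25.4 kb past the 3′ end of the gene and 256.8 kb from its 5′ end. The closest coding start site, at 232.8 kb, was that of Pclo, which encodes the presynaptic protein piccolo. The score of 62.87 ranked 233 of 491, near the median of pool 1 (62.05). The nearest peaks of pools 2 and 3 were 0.67 Mb and 0.71 Mb away.

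**Figure D1:**
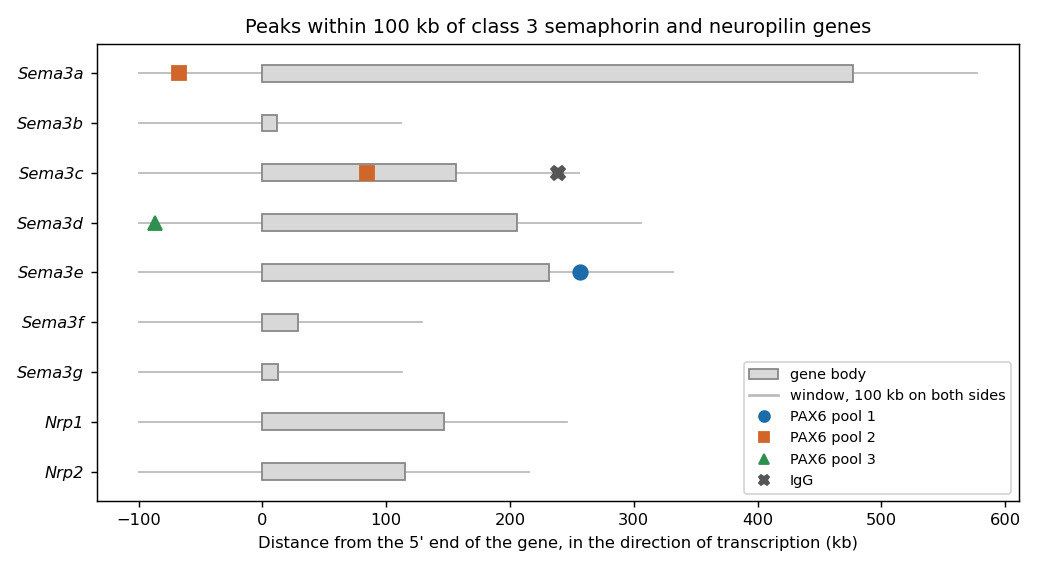
Gene bodies (grey bars) of the 9 members and their windows of 100 kb on both sides (grey lines), with the distance from the 5′ end in kb on the horizontal axis and each peak as a coloured symbol per list. The PAX6 peaks lie 67.3 kb upstream of Sema3a, 87.2 kb upstream of Sema3d, inside Sema3c and 25.4 kb past the end of Sema3e, and the other 5 genes have no symbol.

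Among the members without a peak, the receptor gene Nrp1 (chr8:130882973-131029362) was the closest to a PAX6 peak, which belonged to pool 2 and lay 296.6 kb upstream. Nrp2 (chr1:62749859-62865269), which encodes the preferred receptor of SEMA3F, was the farthest, with its nearest PAX6 peak 1.20 Mb downstream in pool 1. An IgG peak lay nearer to Nrp2, at 394.7 kb upstream. Sema3g (chr14:32031046-32043536), a ligand gene expressed in endothelium, had its nearest PAX6 peak at 350.9 kb. Sema3b (chr9:107500005-107511560) and Sema3f (chr9:107583833-107612806), neighbours on chromosome 9 whose windows overlap, had theirs at 525.9 kb and 424.7 kb, and this was the same peak of pool 3. Between the member peak farthest out, 87.2 kb from Sema3d, and the next one, 296.6 kb from Nrp1, there was therefore no PAX6 peak, and the limit of 100 kb did not separate neighbouring values.

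**Figure D2:**
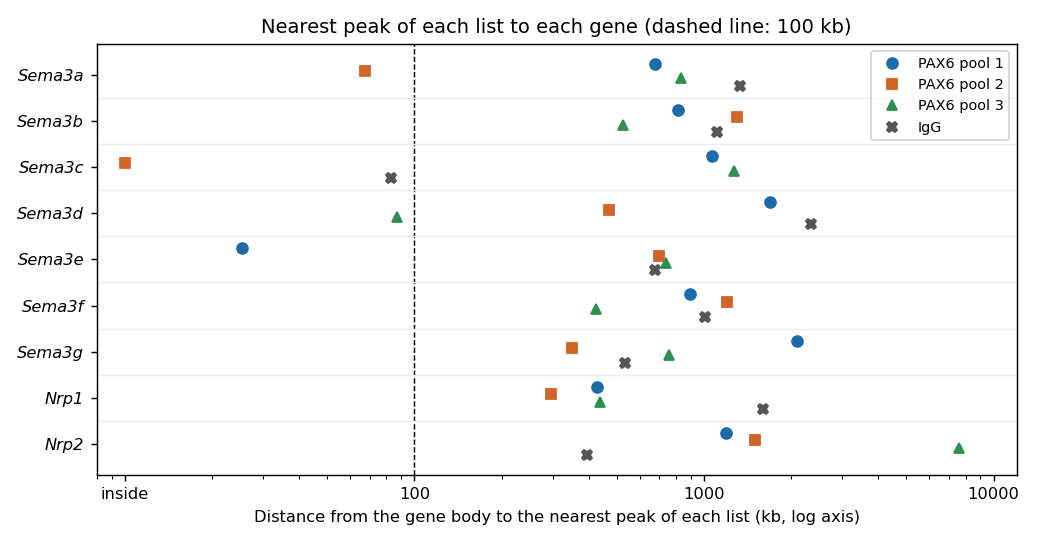
Distance from the body of each gene to the nearest peak of each list, in kb on a logarithmic axis, with a peak inside the gene drawn at the left edge and the limit of 100 kb as a dashed line. The 5 symbols left of the line belong to Sema3a, Sema3c, Sema3d and Sema3e, and the next symbol to the right is Nrp1 in pool 2 at 296.6 kb.

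The number of members with a PAX6 peak was then read against all protein-coding genes under the same rule. A PAX6 peak from any pool lay within 100 kb of 4 of the 9 members (44.4%, exact binomial 95% interval 13.7 to 78.8), against 17.5% of all protein-coding genes. By list, 1 member had a peak of pool 1 against 4.25% of all genes, 2 members a peak of pool 2 against 8.08%, 1 member a peak of pool 3 against 6.84% and 1 member an IgG peak against 8.63%. The intervals cover counting error only, and the genes are not independent samples, since 4 of them lie on 1 chromosome. Peaks of 2 or more PAX6 pools were found at 0 of 9 members, against 1.56% of all genes. Sema3c was the only member with both a PAX6 and an IgG peak, which 2.50% of all genes had.

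The window grows with the gene, and the share of genes with a peak grew with it. Of the protein-coding genes with a body of 100 kb or more, 31.1% had a PAX6 peak, against 15.9% of the shorter ones. The 6 members with long bodies were Sema3a, Sema3c, Sema3d, Sema3e, Nrp1 and Nrp2, and 4 of them had a peak (66.7%, exact interval 22.3 to 95.7). The 3 members with short bodies, Sema3b, Sema3f and Sema3g, had none. By list, 1 of the 6 long members had a peak of pool 1, 2 a peak of pool 2, 1 a peak of pool 3 and 1 an IgG peak, against 7.59%, 15.9%, 13.0% and 16.3% of long genes. Peaks of 2 or more pools, found at none of the 6, were at 4.92% of long genes, and PAX6 and IgG peaks together, found at Sema3c, at 6.84%.

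Counted per length of window, the 3 PAX6 lists together gave 4 peaks in 3.06 Mb around the members, or 1.31 peaks per Mb (exact Poisson 95% interval 0.356 to 3.35), against 0.885 peaks per Mb in the windows of all protein-coding genes. Pool 2 gave 0.654 peaks per Mb (0.0792 to 2.36) against 0.396, and pools 1 and 3 gave 0.327 each (0.00828 to 1.82) against 0.187 and 0.302. IgG also gave 0.327 peaks per Mb against 0.403. In each list the density over all genes lay inside the interval of the members. These intervals take peaks as independent and cover counting error only. Whether the members differ from other genes was not tested. With 1 merged list per group no test between PAX6 and IgG was made.

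**Figure D3:**
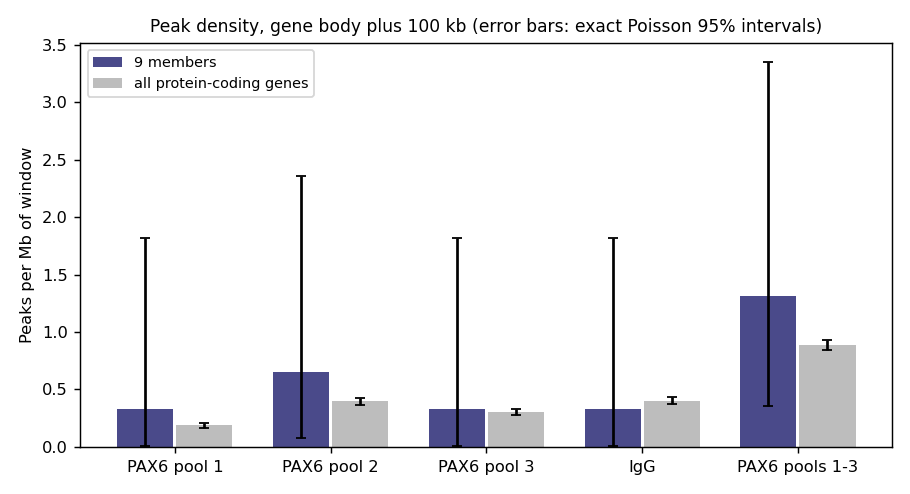
Peaks per Mb of gene body plus 100 kb on both sides (vertical axis) for the 9 members and for all protein-coding genes, by list, with exact Poisson 95% intervals as error bars that cover counting error only. The 3 PAX6 lists together give 1.31 peaks per Mb around the members and 0.885 around all genes, and every interval of the members includes the value of all genes.

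Within their lists, the PAX6 peaks near the members all scored above the median. Their percentiles were 52.6 (Sema3e), 59.0 (Sema3a), 68.2 (Sema3c) and 76.3 (Sema3d), with a median of 63.6, where 50 is the middle of a list. The IgG peak of Sema3c had a percentile of 61.5, which lies between those of the PAX6 peaks of Sema3a and Sema3c. None of the 5 peaks near members ranked above 80% of its list.

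**Figure D4:**
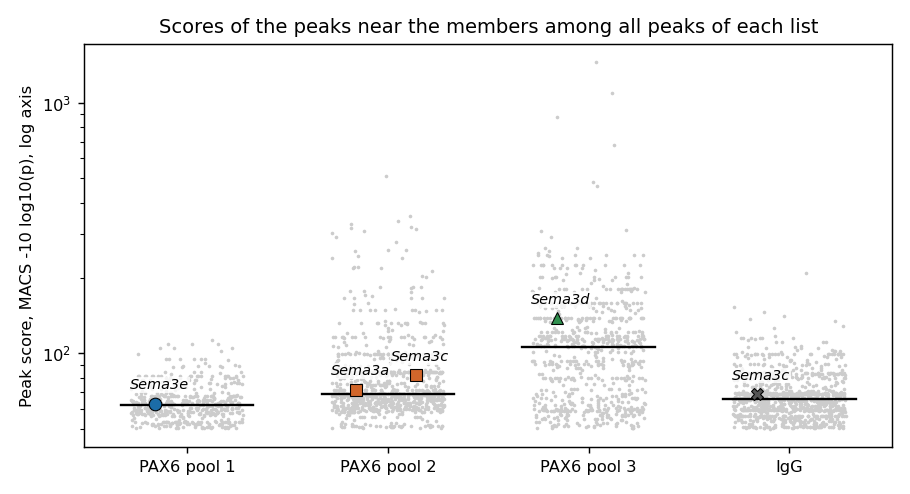
Score of every peak (grey points, logarithmic axis) in the 3 PAX6 pools and IgG, with the median of each list as a black line and the peaks near the members as labelled symbols. Sema3d, at 138.11 in pool 3, stands above the median of its list (105.61), while Sema3e, at 62.87 in pool 1, lies next to the median of 62.05.

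None of the 4 PAX6 peaks overlapped a peak of another pool or of IgG, and the closest approach of a member peak to a peak of any other list was the 154.3 kb between the PAX6 and IgG peaks of Sema3c. Overlap was rare in the lists as a whole, where 2.54% of the 2247 PAX6 peaks overlapped a peak of another pool by at least 1 bp and 3.65% an IgG peak, so that nothing particular to the members can be read from 0 of 4.

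The letters under the peaks differed between the members. The Sema3a peak held an uninterrupted TG run of 47 bp around its centre, followed without a gap by another of 14 bp in the other phase. In the Sema3c peak of pool 2 the runs were shorter, 5 runs of 9 to 13 bp, and in the IgG peak of Sema3c there were 6 runs of 13 to 33 bp. The Sema3d peak held 1 run of 11 bp and the Sema3e peak none of 8 bp or more. A CA or TG repeat of 20 bp or more, searched as 10 or more CA or TG units in a row within 300 bp around the centre, was thus present in 1 of the 4 PAX6 peaks (exact binomial 95% interval 0.631 to 80.6%), against 48.2% of all PAX6 peaks, 53.8% of all IgG peaks and 2.97% of tiles of 300 bp taken every 20 kb along the genome. With a minimum of 12 bp, it was present in 2 of the 4, near Sema3a and in Sema3c, against 65.3% of all PAX6 peaks.

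**Figure D5:**
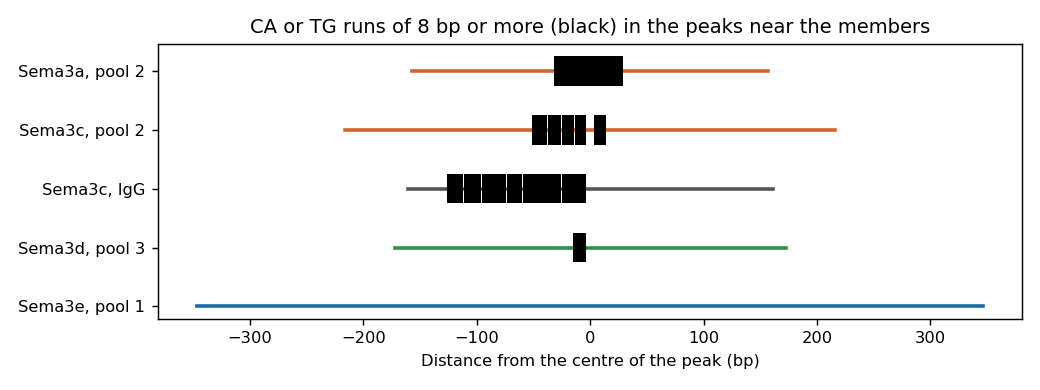
Extent of the 5 peaks near the members (coloured lines) in bp from the centre of each peak, with uninterrupted CA or TG runs of 8 bp or more as black blocks. The runs lie at or next to the centre near Sema3a, Sema3c and Sema3d, fill much of the left side of the IgG peak of Sema3c and are missing from the peak near Sema3e.

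The study derived 2 motifs from its selected PAX6 regions, both variations on a CA or TG repeat, called motif 1 (30 bases) and motif 2 (14 bases). Motif 1, with up to 6 mismatches on either strand, was found in the peaks of Sema3a (0 mismatches), Sema3c (1) and Sema3d (6, at the limit), and not in that of Sema3e (10). Motif 2, with up to 2 mismatches, was found near Sema3a (1) and Sema3c (0) and not near Sema3d (3) or Sema3e (4). The IgG peak of Sema3c matched both motifs with 0 mismatches. Around the centres of all peaks, motif 1 was present in 71.2% of PAX6 peaks, 85.3% of IgG peaks and 4.99% of the genomic tiles, and motif 2 in 73.1%, 88.1% and 7.55%. Both motifs were thus found around the peaks of the negative control in a larger share than around PAX6 peaks.

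Letters of the known PAX6 domains were also searched within 300 bp around the centre. The core of the paired domain consensus, ttcacgc on either strand, was in none of the 5 peaks, against 0.361% of all PAX6 peaks and 0.489% of genomic tiles. A pair of inverted homeodomain cores, TAAT and ATTA separated by any 3 bases, a pattern that reads the same on both strands, was found once, near Sema3c in pool 2, 106 bp from the centre of the peak. This pair was in 0.721% of all PAX6 peaks, 0.199% of IgG peaks and 1.02% of genomic tiles. A match is a description of these letters and not of a bound site.

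The peak near Sema3e was the one whose sequence was mostly repeated elsewhere in the genome. Of its stretches of 32 bases, 58.5% occurred more than once in mm9 on either strand, more than in 83.8% of the peaks of pool 1. The share was 44.3% for the IgG peak of Sema3c, 14.5% near Sema3a, 5.24% in Sema3c and 0% near Sema3d. The medians of the lists were 16.3% (pool 1), 16.6% (pool 2), 33.3% (pool 3) and 17.3% (IgG). How reads that align to several places were treated is not given in the sources used here, and its part in the Sema3e peak was not tested.

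Partners and relatives of these ligands and receptors, together called partner genes here, were read under the same rule, in 4 lists of 49 genes in all. A PAX6 peak lay within 100 kb of 12 of them (24.5%) and an IgG peak near 8 (16.3%), against 17.5% and 8.63% of all genes. Of the 9 plexins, the signalling receptors, 2 had a PAX6 peak. At Plxna1 the pool 3 peak, 18.0 kb upstream, scored 148.88 (rank 143), and Plxna2 had 2 peaks in pool 2, 24.3 kb upstream and in an intron, with scores of 67.93 and 60.63. Plxna4 had only an IgG peak, and Plxnd1, the receptor of SEMA3E, had no peak. Of the 13 semaphorins of classes 4 to 7, mostly membrane-bound relatives, 3 had a PAX6 peak, namely Sema4f, Sema5b and Sema6d.

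Among the 20 co-receptors and intracellular mediators, 5 had a PAX6 peak, and of the 7 VEGF ligands and receptors, which share the neuropilins, 2 had one. Peaks of 2 PAX6 pools were found at 4 of the 49 partner genes (8.16%, against 1.56% of all genes), and a PAX6 peak together with an IgG peak also at 4 (8.16%, against 2.50%), namely Sema6d, Chl1, Farp1 and Vegfa. The genes with peaks of 2 pools were Sema4f, Chl1 (an adhesion molecule of the L1 family that associates with NRP1), Crmp1 (a collapsin response mediator that acts in the SEMA3A pathway) and Gsk3b (a kinase that phosphorylates such mediators). At Sema4f a peak of pool 3, 4.8 kb past the end of the gene, had a score of 159.13 (rank 90), and the peak of pool 1, at 74.9 kb, had a score of 53.40 (rank 400) and lay closest to the start of Hk2. Chl1 had an intronic peak of pool 3 with a score of 123.24 (rank 212), a peak of pool 2 16.9 kb past its end (59.75, rank 902) and an intronic IgG peak (82.57, rank 156). The pool 1 peak at Crmp1 (58.89), 55.8 kb past its end, was intronic and lay closest to the start of Evc2. The pool 3 peak at Crmp1 (64.67), 41.4 kb upstream, lay closest to the start of Gm1043. Gsk3b had a pool 3 peak inside its body, in an intron (68.51), and a pool 2 peak 33.1 kb past its end (129.77, rank 68). Both peaks at Gsk3b lay closest to the start of Nr1i2. At each of these genes the peaks of different pools lay at different positions. Of the 49 partner genes, 17 have bodies of 100 kb or more, against 2399 of all 22350 genes. A PAX6 peak lay near 7 of these 17 (41.2%, against 31.1% of long genes), peaks of 2 pools near 2 (Chl1 and Gsk3b, 11.8% against 4.92%), and an IgG peak near 4 (23.5% against 16.3%). Sema4f (27.9 kb) and Crmp1 (50.1 kb) have shorter bodies, and 1.16% of genes under 100 kb had peaks of 2 or more pools. The lists of partner genes were also chosen with earlier results of these data known. No interval is given for the partner genes, and whether their shares differ from those of other genes was not tested.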

How the data were processed

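The authors merged the libraries of each pool, used Bowtie to align them to mm9 and MACS to call peaks against input. Neither version is given in the sources used here. Coordinates of each peak were deposited with a score, 10 times the negative log10 of its p-value. No read counts entered, and library depths are unknown. Pool 1 had 491 peaks, pool 2 had 1032, pool 3 had 724 and IgG 1007, with every score at 50.04 or more.

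Peaks were matched to GENCODE M1, the annotation of mm9. A peak was given to a gene when its centre lay in the body or within 100 kb. Background shares used all 22350 protein-coding genes. Peaks were not treated as replicates and no test was made. Motifs, CA or TG runs and stretches of 32 bases were searched in the mm9 sequence, the last of these chosen after the data were seen. All 9 members were named, with the closest coding gene of each peak and the partner genes with peaks of 2 or more pools. Other partner genes were named in addition, after their values were seen. The sequences of the PAX6 peaks of Sema3c and Sema3e are not reported here. The members and lists of genes were chosen with earlier results of these data known. Peaks planted inside the window and motifs planted without mismatches were recovered on simulated data, which checked the search and not the mismatch limits. Alternatives covered the distance, the placement of a peak, the score, overlap with IgG, the pools and the repeat length. Tools were samtools 1.23.1, pysam 0.24.0 and, under Python 3.11.15, scipy 1.17.1, matplotlib 3.10.9 and numpy 2.4.6.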

Additional observations from a re-analysis of the deposited data

How the results depend on the processing

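Of 89 recalculations of the 8 results, 60 kept their value within the limits set, a factor of 1.5 for counts, 1 SD between the member peaks for the median percentile and the exact 95% interval for the share with a repeat. Of these 60, 16 belong to the shared regions and 12 to the members with peaks of 2 or more pools, both 0 from the start. The interval for the repeat share is wide (0.631 to 80.6%), so the tally is not a measure of stability. The number of regions shared between lists near the members was 0 in all 16 alternatives, also when peaks within 10 kb of each other counted as shared. Most of these settings only remove peaks or ask for a larger overlap, so they could not raise a value of 0. The tolerance of 10 kb was not combined with the distance of 500 kb, where peaks of pools 1 and 3 upstream of Nrp1 were 2.8 kb apart. The number of PAX6 peaks near members, and equally of members with such a peak, fell from 4 to 1 at 10 kb (Sema3c), to 2 at 50 kb (Sema3c and Sema3e), to 1 at a score of 100 or more (Sema3d) and to 2 when a peak counted only for the gene with the closest start site (Sema3c and Sema3d). Leaving out a pool gave 2 to 3 for both, the lowest without pool 2, which left Sema3d and Sema3e. At 500 kb, a distance added after the data were seen, there were 10 PAX6 peaks at 7 members, 2 of them (Nrp1 and Sema3d) with peaks of 2 or more pools. For Sema3d, the pool 2 peak was the one upstream of Sema3a, 469.3 kb away. No share of all protein-coding genes is given at 500 kb, so nothing particular to the members can be read from these counts. The IgG peak near members, and the member with it, fell from 1 to 0 at 10 kb, at 50 kb, from start sites, at scores of 70 and of 100 and with the closest start site only, and rose to 2 at 500 kb. The median percentile of 63.6 was 76.3 at a score of 100 or more and 53.1 at 500 kb. No paired analysis was possible because the numbered libraries were merged within each pool before peaks were called. With 4 PAX6 peaks, the counts limit every statement on the members.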

Other observations

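Beyond 100 kb, peaks of different pools lay near each other upstream of the receptor gene Nrp1. A peak of pool 3 at chr8:130446625-130446892 (score 54.06, rank 686) and a peak of pool 1 at chr8:130449674-130450038 (53.40, rank 400) were 2.8 kb apart, 436.2 kb and 433.1 kb upstream of Nrp1, and another peak of pool 1 (63.01, rank 229) lay 7.3 kb from the pool 3 peak. The closest coding start site there was that of Pard3, a cell polarity gene, at 343.1 to 350.8 kb. These peaks were noticed after the data were seen and do not overlap.

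On chromosome 5 the 4 members with a PAX6 peak lie in 5.05 Mb, from chr5:12283166 to chr5:17336086 with 100 kb on both sides. This interval held 15 PAX6 peaks, for which the exact Poisson 95% interval is 1.68 to 4.95 per Mb, against 0.868 per Mb over chromosomes 1 to 19 and X. The interval was chosen after the peaks were seen, so these values are a description. Of the 15 peaks, 9 (7 of pool 2 and 2 of pool 3) and 3 of the 4 IgG peaks lay within 265.1 kb between Sema3e and Sema3c, among gene models of the Speer4 family. In that stretch a peak of pool 2 (61.78) overlapped a peak of pool 3 (54.90) by 274 bp, and an IgG peak overlapped another peak of pool 3 by 367 bp. Of the stretches of 32 bases in these 12 peaks, between 65.5% and 91.4% occurred more than once in mm9, and the part of this in the number of peaks was not tested. None of these peaks is within 100 kb of a member.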
